A study of Mus musculus with 16 samples.

Results

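The nuclear-encoded subunits of oxidative phosphorylation were followed across adipocytes and liver of mice labelled wild-type or adipocyte-specific Trib1 knockout. Members were taken by gene symbol: the Ndufa, Ndufb, Ndufc, Ndufs and Ndufv genes for complex I, Sdha to Sdhd for complex II, the Uqcr genes and Cyc1 for complex III, Cox genes of the common subunit forms for complex IV, and the Atp5 genes without Atp5s and Atp5sl for complex V. This gave 74 of the 23420 genes in the files, with 36 in complex I, 4 in complex II, 9 in complex III, 10 in complex IV and 15 in complex V. The symbol Ndufa4 was kept in complex I by its name, although its protein is now known as a subunit of cytochrome c oxidase.

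The study used 8 male C57BL/6 mice, each giving 1 adipocyte and 1 liver library. The adipocytes had been freed from subcutaneous fat with collagenase. The groups were 4 wild-type mice (wt_1135, wt_1136, wt_1138 and wt_1153) and 4 mice labelled adipocyte-specific Trib1 knockout (ko_1137, ko_1139, ko_1151 and ko_1152), and each group served in both tissues. Mice ko_1151, ko_1152 and wt_1153 were taken at postnatal day 70 and the other 5 at day 76, so age was not balanced between the groups. The sources used here name neither the Cre driver nor the deleted exons, nor whether the wild-type mice carried a floxed allele or Cre. Adipocyte RNA came from a lipid tissue column kit and liver RNA from TRIzol, with a lower RNA integrity minimum for adipose, so tissue and extraction cannot be told apart.

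Oxidative phosphorylation couples the transfer of electrons from fuel to oxygen with the synthesis of ATP in the mitochondrial inner membrane. Complex I oxidises NADH and complex II oxidises succinate. Both pass electrons to ubiquinone, complex III passes them on to cytochrome c, and complex IV reduces oxygen. Complexes I, III and IV pump protons, and complex V, the ATP synthase, lets protons back through a ring of c subunits to drive ATP formation. All complexes except II also hold subunits encoded in mitochondrial DNA, and the count files list no gene of the mitochondrial genome. Liver is rich in mitochondria, and white adipocytes hold few around a single large lipid droplet.

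Library totals ran from 28560887 to 53716669 counts. The members took 1.36% ± 0.0447 (SD, n = 4) of all counts in wild-type liver and 1.38% ± 0.0783 in knockout-labelled liver. They took 1.48% ± 0.124 in wild-type adipocytes and 1.92% ± 0.119 in knockout-labelled adipocytes. Tested members had 671 to 160604 counts in a library, with a median of 6077, so counting error was small beside the spread between mice. Ndufs5, an accessory subunit of complex I, was listed at 0 or 1 count in every library and was not tested, which leaves 73 members. Levels are given as CPM, the counts relative to the library's total after TMM scaling (trimmed mean of M values, which aligns libraries on the bulk of their genes). Trib1 itself did not separate the labels. Its level was 752 to 1290 CPM in wild-type, against 1070 to 1410 CPM in knockout-labelled adipocytes, a log2 difference of 0.28 ± 0.18 (SE; edgeR adjusted p = 0.241). Reads outside a deleted exon would still be counted for that gene, so the label was not checked by it, and the groups are called knockout-labelled throughout. Defining markers followed the tissue labels: the summed level of 8 adipocyte markers was 37100 to 52900 CPM in wild-type adipocytes and 169 to 197 CPM in wild-type liver, and 8 hepatocyte markers summed to 101000 to 131000 CPM in wild-type liver and 46.1 to 122 CPM in wild-type adipocytes.

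In adipocytes the members of all 5 complexes rose with the knockout label. Of 73 tested members, 69 were higher at an adjusted p under 0.05 and 1 was lower (edgeR's quasi-likelihood test with Benjamini-Hochberg adjustment over 13795 genes). Among all genes tested, 18.0% were called higher and 17.1% lower, and any call was made for 35.2%. The median log2 difference of the members was 0.53, a fold of 1.44, and the median of all genes tested was -0.01. By complex, the called members were 33 of 35 tested in complex I, 4 of 4 in complex II, 9 of 9 in complex III and 10 of 10 in complex IV, all higher. In complex V, 13 of 15 were higher and 1 was lower. The 4 knockout-labelled libraries lay wholly above the 4 wild-type libraries for 62 of 73 members and wholly below for 1, against 18.7% and 15.2% of all genes. With each mouse left out in turn, 55 to 70 members were called, for which the shares of all genes are not given here.

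**Figure D1:**
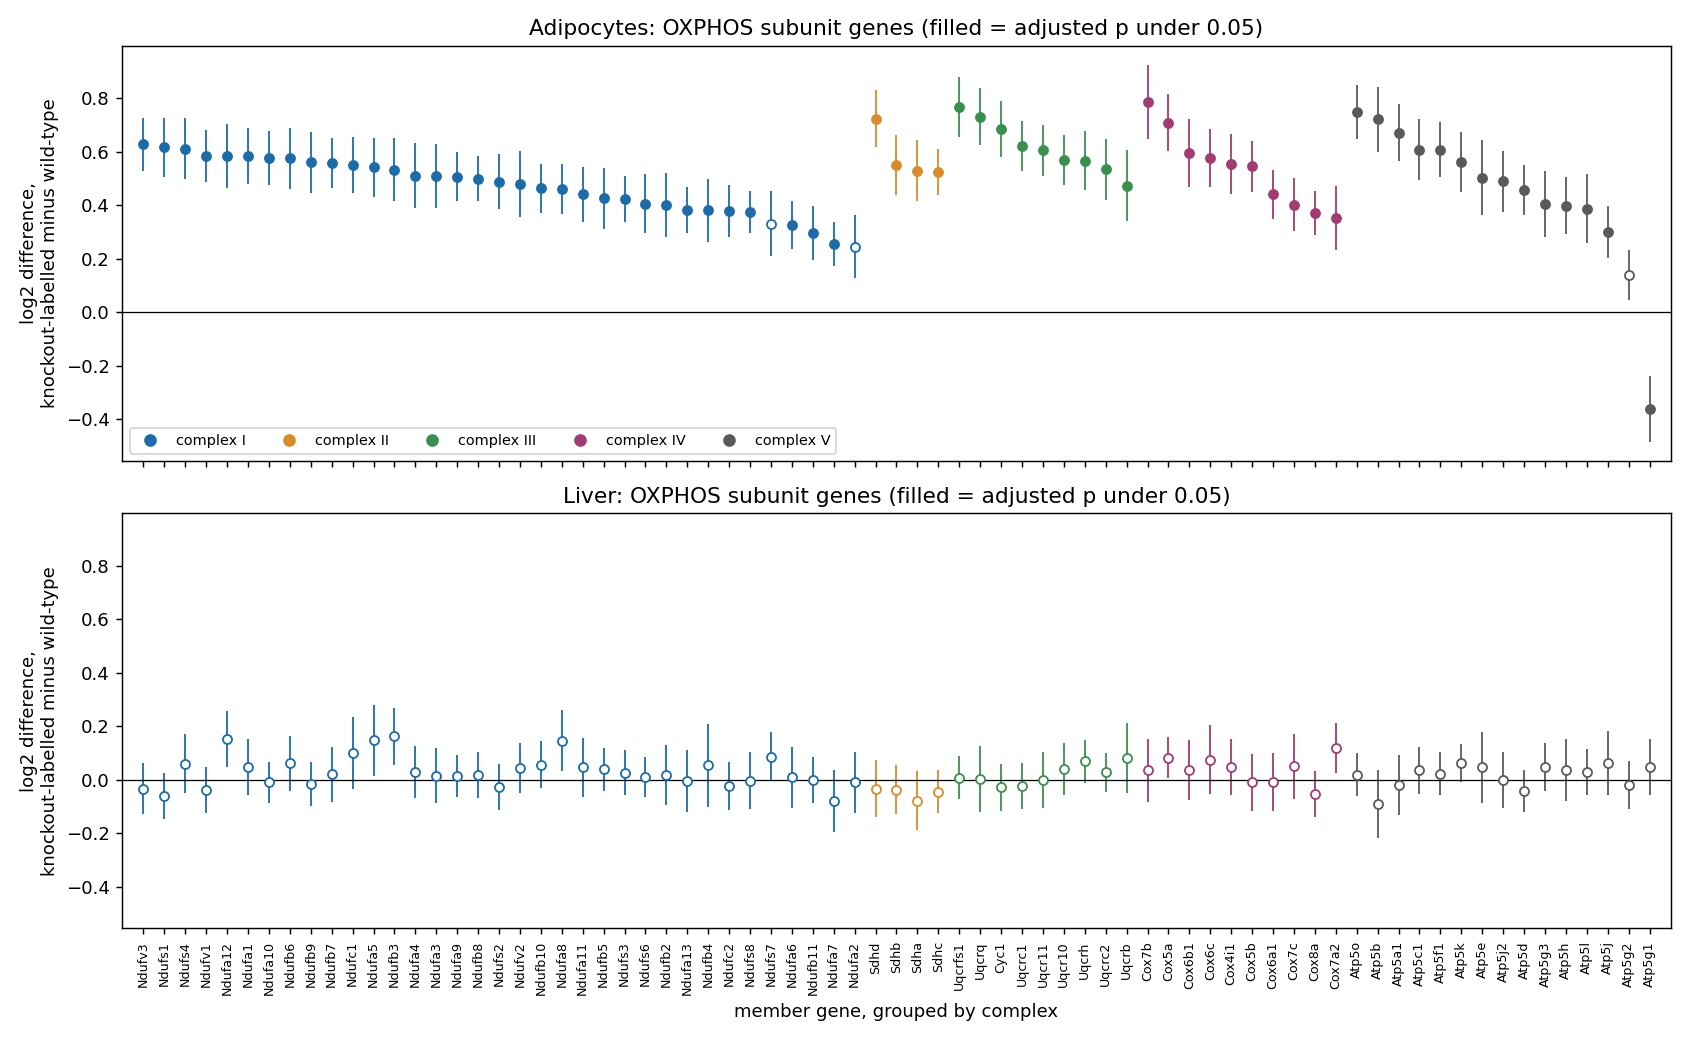
Log2 difference between knockout-labelled and wild-type libraries for each of the 73 tested members (y axis), grouped by complex and ordered within it by the adipocyte value (x axis), in adipocytes (top) and liver (bottom). Points are edgeR estimates, bars are 1 SE and filled points passed an adjusted p of 0.05. In adipocytes 72 members lie above 0 and Atp5g1 lies below it, while the liver values lie between -0.09 and 0.16 and none is filled.

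The size of the rise was similar from complex to complex. The median log2 difference was 0.49 in complex I, 0.54 in complex II, 0.61 in complex III, 0.55 in complex IV and 0.49 in complex V, with a median SE of 0.107 for a single member. The spread of the log2 differences among members was 0.11 (SD) in complex I, 0.09 in complex II, 0.10 in complex III, 0.14 in complex IV and 0.28 in complex V. Complex V thus held the members that differed most from each other. Across the 73 members the difference rose with the wild-type adipocyte level (Spearman rho = 0.41) and less with transcript length (rho = 0.215), as a description of genes that share the same libraries.

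The summed level of the members shows the same libraries in each complex. For complex I, the 4 wild-type adipocyte libraries summed to 3357, 4108, 3511 and 3921 TMM-scaled CPM, and the 4 knockout-labelled libraries to 4691, 5586, 5030 and 5614 CPM. Complex II summed to 1165 to 1380 CPM in wild-type, against 1611 to 2070 CPM in knockout-labelled adipocytes. Complex III summed to 1541 to 1873 CPM and 2291 to 2826 CPM. The groups did not overlap in any of these sums, nor in those of complexes IV and V. Complex IV went from 2250 ± 198 to 3240 ± 313 CPM (SD, n = 4), and complex V from 4960 ± 492 to 7640 ± 588 CPM. The fold of the group means was 1.40 for complex I, 1.47 for complex II, 1.54 for complex III, 1.44 for complex IV and 1.54 for complex V. Within the wild-type libraries, mouse wt_1135 had the lowest value for 52 of 73 members and mouse wt_1136 the highest for 47. Within the knockout-labelled libraries, mouse ko_1137 was lowest for 58 members, and mice ko_1139 and ko_1152 shared the highest values with 36 and 37 members. On this scale the members thus moved together between mice of 1 group as well as between groups. Part of this order rests on the scaling, which moves all members of a library alike. With library totals, the sum over all members was 14540 CPM in wt_1135 and lowest in wt_1138, at 13460 CPM. Mouse wt_1136 stayed highest of the wild-type group (16460 CPM) and ko_1137 lowest of the knockout-labelled group (18090 CPM).

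**Figure D2:**
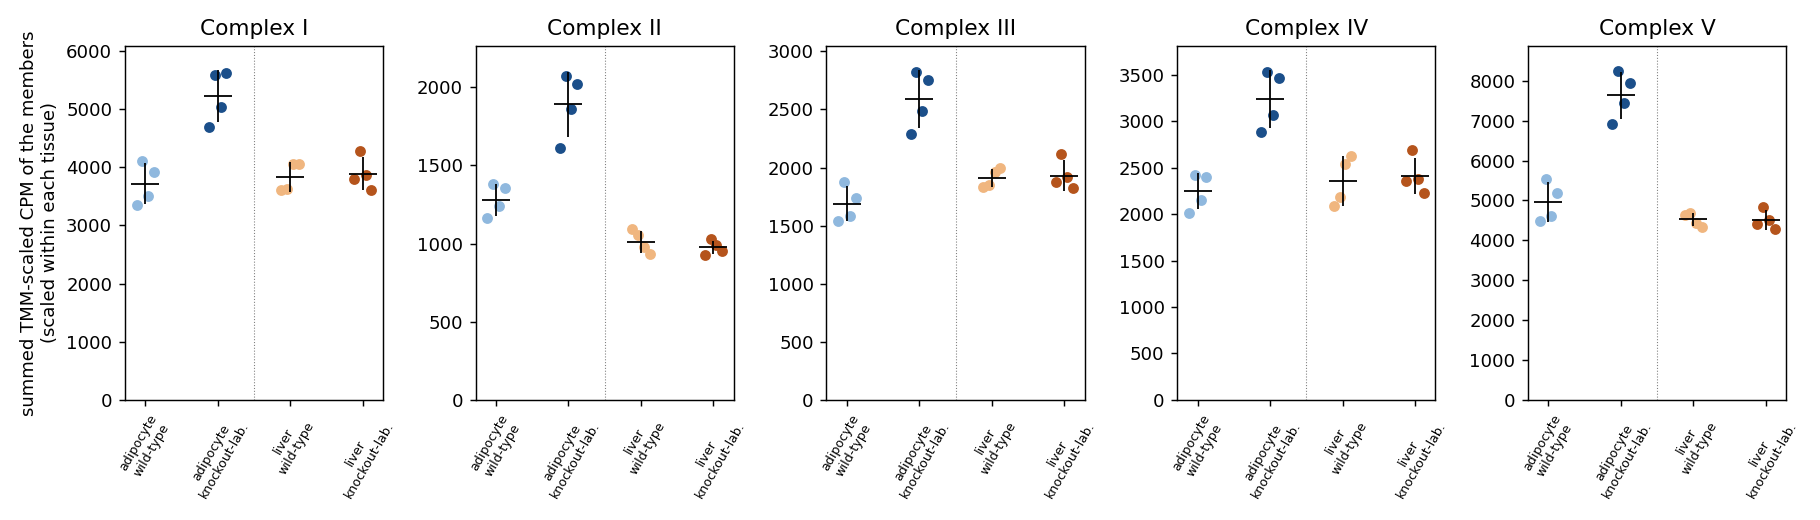
Summed TMM-scaled CPM of the members of each complex (y axis, scaled within each tissue, starting at 0) in each library of the 4 groups (x axis); points are libraries, and the black line with its bar is the mean with 1 SD (n = 4). In all 5 complexes the knockout-labelled adipocyte libraries lie above the wild-type ones, and the liver groups overlap; levels on the 2 sides of the dotted line were scaled separately.

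The mix of complexes shifted a little. Complex I made up 26.8% ± 0.0661 (SD, n = 4) of the summed CPM of the members in wild-type adipocytes and 25.4% ± 0.286 in knockout-labelled adipocytes, and the libraries did not overlap. The share of complex V was 35.6% ± 0.409 and 37.1% ± 0.508, without overlap in the other direction. Complex III went from 12.1% ± 0.147 to 12.6% ± 0.108 with no overlap, while the shares of complexes II (9.25% and 9.17%) and IV (16.2% and 15.7%) overlapped between the groups. In liver, the shares overlapped for every complex. These shares are of reads, in which long and abundant transcripts such as Atp5b weigh most.

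Other genes moved with the label in the same adipocyte libraries. All 8 endothelial markers fell, as did 6 of 8 fibroblast and progenitor markers and 7 of 7 mural markers, against 17.1% of all genes called lower. The summed endothelial level was 607 to 1780 CPM in wild-type, against 170 to 368 CPM in knockout-labelled adipocyte libraries. For fibroblast and progenitor markers these sums were 1480 to 1620 CPM and 673 to 1210 CPM, and for mural markers 265 to 397 CPM and 104 to 170 CPM. No marker of the 3 lists was at 0 in all libraries of a group. None of 8 adipocyte markers and none of 6 macrophage markers tested was called, and adipocyte markers summed to 43000 to 48100 CPM in knockout-labelled libraries. The mean log2 CPM of the 23 endothelial, fibroblast and mural markers lay at 5.11 to 6.43 in wild-type, against 3.62 to 4.81 in knockout-labelled libraries. In bulk RNA, fewer cells of a type and less RNA per cell cannot be told apart. With this marker mean as a covariate, 0 of 73 members were called (edgeR; 3.29% of all genes), the median log2 difference of the members was 0.28 and the median SE rose to 0.196. At an unadjusted p under 0.05, 17 members were higher and 0 lower in that fit, which was run with edgeR alone. The share of all genes at that unadjusted threshold is not given here. Since the marker mean does not overlap between the groups, these other cells and the label cannot be told apart in the members' rise. Without mouse wt_1135, ko_1151 or ko_1152, 4 mural markers were called.

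**Figure D3:**
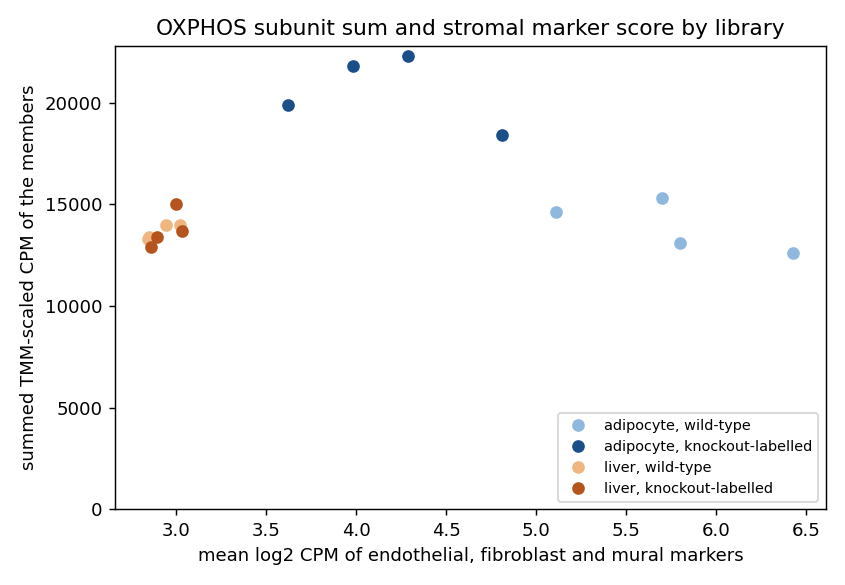
Summed TMM-scaled CPM of the 74 members (y axis, starting at 0) against the mean log2 CPM of the endothelial, fibroblast and mural markers (x axis) in each of the 16 libraries, coloured by group. Wild-type adipocyte libraries lie at 5.11 to 6.43 and 12600 to 15300 CPM, knockout-labelled ones at 3.62 to 4.81 and 18400 to 22300 CPM, so neither axis overlaps between the adipocyte groups, and all liver libraries lie together.

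Scaling and age also bear on the count. With library totals in place of TMM, 44 members were higher and 1 lower, the median of all genes shifted by -0.193, and the calls over all genes turned from 2487 higher and 2362 lower to 1293 higher and 3899 lower. The members' median was then 0.33 and that of all genes -0.20. In the mice taken at day 76 alone (3 wild-type and 2 knockout-labelled), 14 members were called, all higher, against 12.1% of all genes in either direction, with a median of 0.52 and a median SE of 0.157. The 3 mice taken at day 70 (1 wild-type and 2 knockout-labelled) were not tested alone, and 72 of 73 members had the higher mean in the knockout-labelled mice at each age. The sum over all members was 1.49-fold higher at day 76 and 1.43-fold at day 70.

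Complex I accepts electrons from NADH on its flavin-bearing arm. The smallest p-values of the complex were those of Ndufv3, an accessory subunit of that arm, Ndufv1, which binds the flavin, and Ndufb8. Ndufv3 measured 121, 141, 139 and 153 CPM in the wild-type adipocyte libraries and 190, 223, 208 and 237 CPM in the knockout-labelled ones. The groups did not overlap, and the log2 difference was 0.63 ± 0.10 (SE; adjusted p = 0.00187). Ndufv1 measured 157 to 198 CPM and 242 to 277 CPM, a difference of 0.58 ± 0.10 (adjusted p = 0.0023). Ndufb8, an accessory subunit of the membrane arm often used to judge assembly of the complex, was at 155 to 172 CPM in wild-type, against 220 to 262 CPM in knockout-labelled adipocytes, a difference of 0.50 ± 0.08 (adjusted p = 0.00235). The 7 core subunits, which carry the flavin and the iron-sulfur clusters, had a median of 0.48 with 6 called higher, and the 28 accessory subunits tested a median of 0.50 with 27 called higher. Both uncalled members of complex I had higher means with the label. Ndufs7, a core subunit next to the quinone site, gave 0.33 ± 0.12 (adjusted p = 0.061), and Ndufa2, an accessory subunit, gave 0.25 ± 0.12 (adjusted p = 0.135). Without mouse wt_1136, the highest wild-type library for both, they were called, with 0.46 (adjusted p = 0.00613) and 0.35 (adjusted p = 0.0291).

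Complex II is succinate dehydrogenase, an enzyme of the citric acid cycle as well. Sdhd, 1 of its membrane anchors, measured 143, 182, 154 and 164 CPM in wild-type and 231, 295, 255 and 282 CPM in knockout-labelled adipocytes. Every knockout-labelled library lay above every wild-type one, and the log2 difference was 0.72 ± 0.11 (adjusted p = 0.00135). Sdhc, the other anchor, rose by 0.53 ± 0.09 (adjusted p = 0.00214), Sdhb, the iron-sulfur subunit, by 0.55 ± 0.11 (adjusted p = 0.00517) and Sdha, the flavoprotein, by 0.53 ± 0.11 (adjusted p = 0.00674).

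Complex III had the highest median. Uqcrfs1, the Rieske iron-sulfur protein, measured 185, 251, 195 and 209 CPM in wild-type and 322, 383, 342 and 383 CPM in knockout-labelled adipocytes. The groups did not overlap, with a log2 difference of 0.77 ± 0.11 (adjusted p = 0.00131). Uqcrq, a small membrane subunit, rose from 147 ± 14.5 to 245 ± 29 CPM (SD, n = 4), a difference of 0.73 ± 0.11 (adjusted p = 0.00135). Uqcrc1, a core protein of the matrix side, rose by 0.62 ± 0.09 (adjusted p = 0.00141). Cyc1, which holds the heme that hands electrons to cytochrome c, rose by 0.68 ± 0.10 (adjusted p = 0.00157).

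In complex IV, Cox5a measured 128, 151, 117 and 141 CPM in wild-type and 192, 239, 211 and 235 CPM in knockout-labelled adipocytes. That is a log2 difference of 0.71 ± 0.11 (adjusted p = 0.00141) without overlap. Cox5b rose by 0.55 ± 0.09 (adjusted p = 0.00281); both encode matrix-side subunits around the catalytic core. Cox7b, a small membrane subunit, had the highest estimate of all members, 0.79 ± 0.14 (adjusted p = 0.00301), with 135 to 182 CPM in wild-type, against 214 to 315 CPM in knockout-labelled libraries. Cox7a2, the form common outside muscle, had the lowest estimate of the complex, 0.35 ± 0.12 (adjusted p = 0.0465), and its groups overlapped.

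In complex V, all 12 members outside the c subunit were called higher. The 5 genes of the catalytic head and central stalk had a median log2 difference of 0.61, the 4 of the peripheral stalk 0.50 and the 3 small membrane subunits 0.49, with overlapping ranges. Atp5o, the peripheral stalk subunit that confers oligomycin sensitivity, had the smallest p of all members. It measured 186, 209, 177 and 217 CPM in wild-type and 291, 350, 325 and 362 CPM in knockout-labelled adipocytes, a difference of 0.75 ± 0.10 (adjusted p = 0.000882) with no overlap. Atp5b, the catalytic beta subunit, rose from 1860 ± 221 to 3070 ± 204 CPM (SD, n = 4), by 0.72 ± 0.12 (adjusted p = 0.00245), and Atp5a1, the alpha subunit, by 0.67 ± 0.11 (adjusted p = 0.00195).

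Among the genes of the c subunit, 1 was called lower, 1 was not called and 1 was called higher. Mammals encode the c subunit in 3 genes, Atp5g1, Atp5g2 and Atp5g3, whose mature proteins are the same and whose import sequences differ. Atp5g1 (chr11:96068852-96075670, minus strand, GRCm38) measured 31.4, 37.3, 30 and 32.3 CPM in wild-type adipocytes and 27.4, 25.4, 19.9 and 29.2 CPM in knockout-labelled ones. All knockout-labelled libraries were lower, mouse ko_1151 the lowest, and the log2 difference was -0.36 ± 0.12 (95% interval -0.64 to -0.09, adjusted p = 0.0458). This call was lost without mouse wt_1135, wt_1136, wt_1138, ko_1139, ko_1151 or wt_1153, with adjusted p of 0.0591 to 0.106, and its estimate then lay between -0.40 and -0.26. Without mouse ko_1137 or ko_1152 it stood at an adjusted p of 0.0474 and 0.0402. Atp5g2 (chr15:102662864-102672352, minus strand) measured 39.1, 44.9, 35.5 and 41.5 CPM in wild-type and 41.2, 46, 41.5 and 48.6 CPM in knockout-labelled adipocytes. Its groups overlapped and its difference of 0.14 ± 0.09 was not called (95% interval -0.07 to 0.35, adjusted p = 0.267). Atp5g3 (chr2:73908447-73911326, minus strand) measured 278, 385, 284 and 352 CPM in wild-type and 400, 459, 402 and 459 CPM in knockout-labelled adipocytes, a rise of 0.40 ± 0.12 (adjusted p = 0.0293). Its call was lost without mouse wt_1135, wt_1138, ko_1139 or ko_1152, with adjusted p of 0.0745 to 0.0814, and with library totals (0.21, adjusted p = 0.156). With library totals Atp5g1 stood at -0.55 (adjusted p = 0.0137) and Atp5g2 at -0.06 (adjusted p = 0.684), a change of scaling that moves all genes alike and turns the sign of Atp5g2.

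Atp5g3 was the main source of c subunit RNA in both tissues. Per kilobase of transcript, wild-type adipocytes held 388 ± 62.9 CPM per kb of Atp5g3, 77.9 ± 7.72 of Atp5g2 and 40.5 ± 3.93 of Atp5g1 (SD, n = 4, scaled over the wild-type libraries of both tissues). Wild-type liver held 707 ± 9.35 CPM per kb of Atp5g3, 338 ± 21.4 of Atp5g1 and 87.3 ± 4.59 of Atp5g2, so the order of the minor genes was turned. Of the reads of the 3 genes, which no scaling between libraries can move, Atp5g1 took 8.29% ± 0.64 in wild-type adipocytes and 5.09% ± 0.687 in knockout-labelled adipocytes, with ranges of 7.58% to 9.02% and 4.3% to 5.85%. In liver it took 30% ± 1.12 and 30.1% ± 1.58. The share of Atp5g3 went from 81.5% ± 1.34 to 86% ± 0.711 in adipocytes and stayed at 65% ± 1 and 65.1% ± 1.05 in liver.

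**Figure D4:**
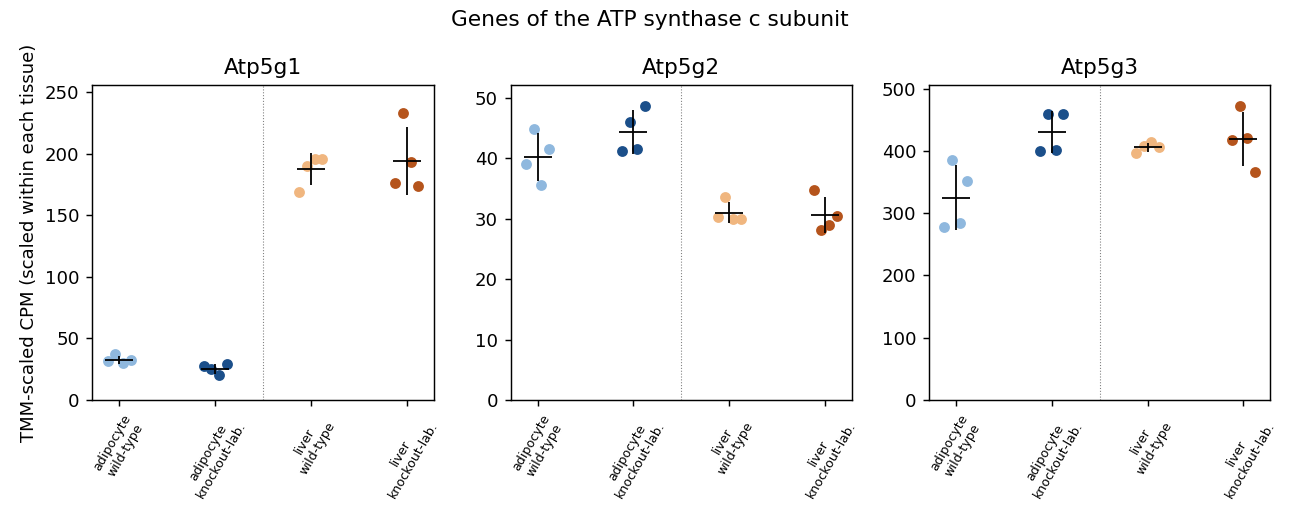
TMM-scaled CPM (y axis, starting at 0, scaled within each tissue) of the c subunit genes Atp5g1, Atp5g2 and Atp5g3 in each library of the 4 groups (x axis); points are libraries, the black line with its bar is the mean with 1 SD (n = 4). Atp5g1 is at 19.9 to 29.2 CPM in knockout-labelled and 30 to 37.3 CPM in wild-type adipocytes, Atp5g2 overlaps between the labels, and Atp5g3 is higher in all knockout-labelled adipocyte libraries.

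Sequence before the start sites is shown for the c subunit genes, which differ in response, and for members of 3 other complexes that rose. Bases come from RefSeq promoters on GRCm38.p6, 5′ to 3′ on the strand of the gene and ending before the first base that GENCODE M21 annotates as exon. Capitals mark matches, on either strand, to 4 letter strings of factors known for respiratory genes: GCGCATG for nuclear respiratory factor 1, CCGGAAG for ETS factors such as GABPA, AAGATGG for YY1 and AAGGTCA for estrogen-related receptors. Atp5g2 is shown as 30 bases around its match, which another of its transcripts covers with an exon. The stretches are Atp5g1 at chr11:96075671-96075781 (minus strand), Atp5g2 at chr15:102671070-102671099 (minus), Atp5g3 at chr2:73911327-73911476 (minus), Sdhd at chr9:50603850-50603909 (minus), Uqcr11 at chr10:80406831-80406971 (minus) and Cox5b at chr1:36691337-36691448 (plus).
Atp5g1: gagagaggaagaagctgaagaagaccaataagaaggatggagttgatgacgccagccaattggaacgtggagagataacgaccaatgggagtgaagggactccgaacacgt
Atp5g2: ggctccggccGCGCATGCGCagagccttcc
Atp5g3: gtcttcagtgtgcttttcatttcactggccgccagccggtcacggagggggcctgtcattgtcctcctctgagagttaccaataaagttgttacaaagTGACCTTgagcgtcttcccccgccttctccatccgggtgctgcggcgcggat
Sdhd: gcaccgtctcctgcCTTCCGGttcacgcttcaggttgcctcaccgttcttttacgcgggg
Uqcr11: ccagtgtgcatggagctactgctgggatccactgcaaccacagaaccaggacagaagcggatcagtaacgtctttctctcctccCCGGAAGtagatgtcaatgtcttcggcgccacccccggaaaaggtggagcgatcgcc
Cox5b: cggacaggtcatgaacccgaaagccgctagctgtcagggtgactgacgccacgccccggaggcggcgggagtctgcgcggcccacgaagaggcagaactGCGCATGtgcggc

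The Atp5g1 stretch holds none of the 4 strings, and neither does its whole window from 250 bases before to 50 after the start. In Atp5g2 the first string is found on both strands, overlapping itself, and in Cox5b on the plus strand. Within the stretches shown, Atp5g3 holds the estrogen-related receptor string, and Sdhd and Uqcr11 the ETS string. In the whole 300-base windows, Sdhd also holds AAGGTCA and Uqcr11 also holds GCGCATG. Over the 300-base windows, 62 of 74 members had a RefSeq promoter. Of these, 21.0% held GCGCATG, against 5.48% of 17692 genes of the files, and 25.8% held CCGGAAG, against 13.0%. AAGATGG was found in 17.7% against 7.31%, and AAGGTCA in 12.9% against 4.66%. The 17692 genes were taken whether expressed or not. The shares differed by complex. CCGGAAG was in 12.5% of the 32 complex I promoters, near the share of all genes, and in 35.7% to 66.7% of the other complexes. AAGATGG was in 0 promoters of complexes II and III, and AAGGTCA in 0 of complexes III and IV, each with 3 to 8 promoters. The members' change in adipocytes is given with and without each string, and the differences between these medians were not tested. The 13 members with GCGCATG had a median log2 difference of 0.50 and the 48 tested without it 0.51, and the medians were 0.53 with and 0.51 without CCGGAAG, 0.50 and 0.52 for AAGATGG, and 0.40 and 0.51 for AAGGTCA, which only 7 tested members held. The 26 members with none of the 4 strings, Atp5g1 and Atp5o among them, had a median of 0.54. A match is a string of letters in a window and no measured site.

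In liver no member was called between knockout-labelled and wild-type libraries. The count was 0 of 73 by edgeR's quasi-likelihood test, against 0.0226% of 13288 genes called in either direction. It was also 0 by DESeq2 and by limma-voom. By edgeR, 0 members had an unadjusted p under 0.05, against 1146 of the 13288 genes. The log2 differences ran from -0.09 to 0.16 with a median of 0.02, and the 95% intervals of single members reached from -0.37 to 0.44. The groups overlapped for all 73 members, where 2.36% of all genes lay wholly above and 2.30% wholly below. The smallest p in complex I was that of Ndufb3, a small membrane-arm subunit, at 66.5 ± 2.86 CPM in knockout-labelled and 59.4 ± 9.12 CPM in wild-type liver (SD, n = 4), a difference of 0.16 ± 0.11 (adjusted p = 0.698). Ndufa12 and Ndufa8 followed with 0.15 ± 0.10 and 0.15 ± 0.11. In complex II these were Sdha at -0.08 ± 0.11, Sdhc at -0.04 ± 0.08 and Sdhb at -0.04 ± 0.09. In complex III they were Uqcrh, the hinge protein beside cytochrome c1, at 0.07 ± 0.08, Uqcrb at 0.08 ± 0.13 and Uqcr10 at 0.04 ± 0.10. In complex IV they were Cox7a2 at 0.12 ± 0.09, Cox5a at 0.08 ± 0.08 and Cox8a at -0.05 ± 0.09, and in complex V Atp5k, a subunit of ATP synthase dimers, at 0.06 ± 0.07, Atp5b at -0.09 ± 0.13 and Atp5d, of the central stalk, at -0.04 ± 0.08. The smallest adjusted p of any member was 0.698.

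Liver sums overlapped between the labels and differed between mice. The sum over all members was 13260, 13400, 13970 and 13960 CPM in wild-type and 13370, 14960, 13670 and 12880 CPM in knockout-labelled liver. Mouse ko_1139 had the highest value of its group for 66 of 73 members and mouse ko_1152 the lowest for 50. The fold of the sums was 1.05 in mice taken at day 76 and 0.951 in those taken at day 70, and the mean of the knockout-labelled mice was higher for 64 of 73 members at day 76 and for 13 at day 70. The summed endothelial level was 67.9 to 87.1 CPM in wild-type, against 84.5 to 93.7 CPM in knockout-labelled liver.

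Whether the label acted differently in adipocytes and liver was tested with an interaction term over all 16 libraries. Of 73 members, 47 had a higher effect in adipocytes than in liver and 0 a lower one, against 10.4% and 8.73% of 14898 genes (19.1% in either direction, edgeR). DESeq2 and limma-voom called 51 and 48 members, all higher, and 1 member, Atp5g1, was lower at an unadjusted p under 0.05 by each of the 3 tools. The calls were 19 of 35 tested in complex I, 4 of 4 in complex II, 8 of 9 in complex III, 8 of 10 in complex IV and 8 of 15 in complex V. The smallest p-values were those of Atp5o, with a log2 difference of effects of 0.75 ± 0.13 (adjusted p = 0.00139), Uqcrfs1 with 0.78 ± 0.15 (adjusted p = 0.00198), Cyc1 with 0.74 ± 0.14 (adjusted p = 0.00273), Sdhc with 0.59 ± 0.12 (adjusted p = 0.00337) and Uqcrc1 with 0.67 ± 0.14 (adjusted p = 0.00337). For Atp5g1 the difference was -0.39 ± 0.17 and was not called (adjusted p = 0.125). The count fell to 29, 30 and 26 members without mouse wt_1138, ko_1139 or ko_1152. With library totals it fell to 16, 15 of them higher and Atp5g1 lower, and the share of all genes on that scale is not given here. With the mouse as a replicate block the count was 36 members, all among the 47. The shares of all genes by DESeq2 and limma-voom, with a mouse left out and with the block are not given here.

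Wild-type adipocytes and wild-type liver were compared in the mice without a knockout label. With TMM scaling, 64 of 73 members were lower in adipocytes and 0 higher, against 37.2% and 40.5% of 14366 genes (77.6% called in all). With library totals 18 members were lower and 14 higher, for which the shares of all genes are not given here. With TMM and edgeR, 1 member was higher at an unadjusted p under 0.05. DESeq2, with its own size factors, and limma-voom called 2 and 3 members higher, and their shares of all genes are not given here. The median log2 difference of the members, adipocytes minus liver, was -0.67 with TMM and -0.02 with library totals, and that of all genes was 0.06 and 0.71. This change of scaling moves every gene by the same amount, and the direction of a single member is given here with its TMM value. The libraries lay wholly below those of liver for 62 members and wholly above for 1, Cox8a, against 35.2% and 38.2% of all genes. The 4 wild-type adipocyte libraries enter both this comparison and the one between labels in adipocytes.

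**Figure D5:**
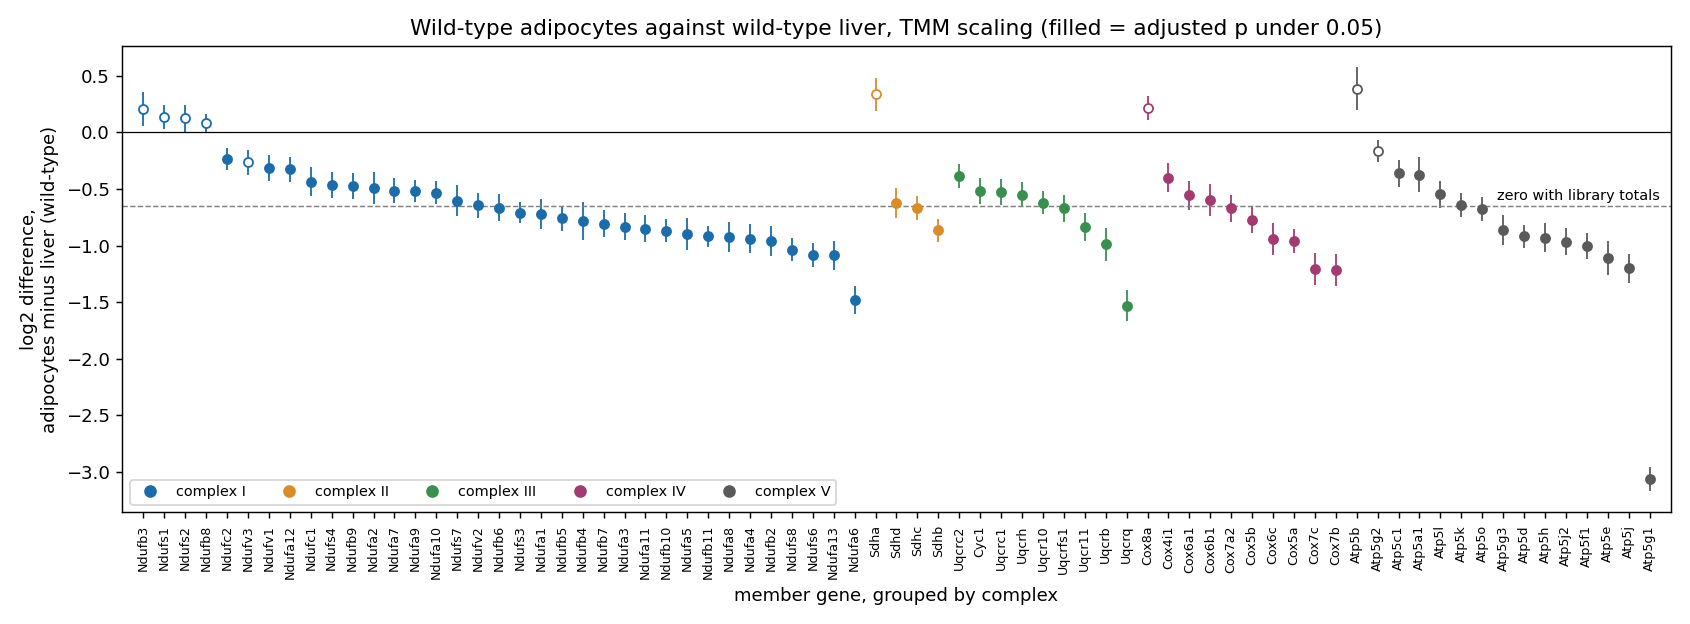
Log2 difference between wild-type adipocytes and wild-type liver (y axis) for each of the 73 tested members with TMM scaling, grouped by complex and ordered by value (x axis); points are edgeR estimates, bars 1 SE, and filled points passed an adjusted p of 0.05. The dashed line, 0.648 below 0, is about where 0 lies with library totals; Atp5g1 lies lowest at -3.06, and 64 members are filled below 0 with TMM, of which many lie near the dashed line.

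The differences between tissues spread widely within each complex, with an SD across members of 0.38 in complex I, 0.54 in complex II, 0.35 in complex III, 0.42 in complex IV and 0.74 in complex V. Medians with TMM were -0.66 in complex I, -0.65 in complex II, -0.62 in complex III, -0.72 in complex IV and -0.86 in complex V, while with library totals they were -0.01, 0.00, 0.03, -0.08 and -0.22, so that complexes II and III changed sign. Within complex I the members ran from Ndufa6, at -1.48 ± 0.12 (adjusted p = 9.05e-07), to Ndufb3, a small membrane-arm subunit, at 0.21 ± 0.15 (adjusted p = 0.217), which was called with library totals at 0.85 (adjusted p = 0.000226). Ndufa6, an accessory subunit of the matrix arm, measured 81, 91.8, 80.3 and 84.9 CPM in wild-type adipocytes and 203, 208, 261 and 272 CPM in wild-type liver on the scale common to both. The groups were far apart.

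In complex II, Sdha measured 653 ± 50.5 CPM in adipocytes and 517 ± 79.9 CPM in liver (SD, n = 4), a difference of 0.34 ± 0.15 that was not called with TMM (adjusted p = 0.0561). Sdhb measured 184 ± 13.3 and 334 ± 14.9 CPM, a difference of -0.87 ± 0.10 (adjusted p = 1.59e-05). With library totals Sdha was called higher at 0.98 (adjusted p = 6.42e-05) and Sdhb was not called at -0.22 (adjusted p = 0.0645). The 2 subunits join in equal numbers in the enzyme, and under both scalings their estimates had opposite signs. In complex III, Uqcrq was lowest at -1.53 ± 0.14 (adjusted p = 1.75e-06) and Uqcrc2, a core protein, highest at -0.39 ± 0.11 (adjusted p = 0.006), which became 0.26 with library totals. In complex IV, Cox7b stood at -1.21 ± 0.14 (adjusted p = 1.32e-05) and Cox8a, the common form of that small subunit, at 0.22 ± 0.11 (adjusted p = 0.0871), called higher with library totals at 0.87 (adjusted p = 2.37e-05).

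In complex V the extremes were Atp5g1 and Atp5b. Atp5g1 measured 26.8, 31.8, 25.6 and 27.6 CPM in wild-type adipocytes and 212, 235, 241 and 245 CPM in wild-type liver. The log2 difference was -3.06 ± 0.11 (adjusted p = 8.97e-10), and -2.41 with library totals. Atp5b measured 1590 ± 189 and 1220 ± 226 CPM (SD, n = 4), a difference of 0.39 ± 0.19 (adjusted p = 0.0821), and 1.03 with library totals (adjusted p = 0.000311). Atp5g3 was lower in adipocytes by TMM at -0.86 ± 0.13 (adjusted p = 0.000135) and not called with library totals at -0.22 (adjusted p = 0.133), and Atp5g2 was not called at -0.16 ± 0.10 (adjusted p = 0.135) but was 0.49 with library totals (adjusted p = 0.00119).

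Per kilobase of transcript, the median member of complex I stood at 109 CPM per kb in wild-type adipocytes, of complex II at 156, of complex III at 194, of complex IV at 260 and of complex V at 197. In wild-type liver these medians were 167, 209, 298, 471 and 384 CPM per kb. Complex I was lowest and complex IV highest in both tissues. Members of 1 complex spanned wide ranges, from 21 (Ndufb4) to 460 (Ndufa4) CPM per kb in complex I of adipocytes, and from 40.5 (Atp5g1) to 830 (Atp5b) in complex V.

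Genes that build the complexes were followed beside their subunits. Assembly factors insert cofactors and join modules without staying in the enzyme. Of 47 listed, 39 were tested in adipocytes, and 16 rose and 1 fell, with a median log2 difference of 0.28, where 18.0% of all genes were called higher and 17.1% lower. Atpaf2, a chaperone of the ATP synthase head, went from 67.8 ± 5.93 to 115 ± 10.3 CPM (SD, n = 4), a rise of 0.77 ± 0.09 (adjusted p = 0.00045). Ndufaf4, a complex I factor, rose by 0.74 ± 0.14 (adjusted p = 0.00372), Foxred1, also of complex I, by 0.50 ± 0.08 (adjusted p = 0.00228), and Cox11, which delivers copper to complex IV, by 0.66 ± 0.10 (adjusted p = 0.00195). Sdhaf1, which helps the iron-sulfur subunit of complex II mature, fell by 0.24 ± 0.08 (adjusted p = 0.0485), while all 4 complex II subunits rose; its call held only without mouse wt_1135 among the mice left out in turn. In liver 0 of 39 were called.

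Other mitochondrial genes moved in adipocytes too. Of 10 genes of the outer membrane and of import, 7 rose and 3 were not called, against 18.0% of all genes called higher. They were led by Timm23, the channel of the inner membrane translocase, at 0.64 ± 0.09 (adjusted p = 0.00109), Vdac1, the main outer membrane pore, at 0.55 ± 0.10 (adjusted p = 0.00288), and Timm44, which tethers the import motor, at 0.56 ± 0.10 (adjusted p = 0.00333). The ATP carriers Slc25a5 and Slc25a4 rose by 0.71 ± 0.10 (adjusted p = 0.00115) and 0.48 ± 0.08 (adjusted p = 0.00199). Ucp2 fell by 1.02 ± 0.27 on the log2 scale (adjusted p = 0.017), from 92.4 ± 24.9 to 45.6 ± 17.8 CPM. Ucp1, the uncoupling protein of brown fat, measured 6.46 to 56.5 CPM in wild-type, against 3.57 to 7.91 CPM in knockout-labelled adipocytes and was not called (-1.78 ± 0.71, adjusted p = 0.0759). It belongs to a list of 8 brown and beige adipocyte markers, of which 4 rose and 1 fell, against 18.0% and 17.1% of all genes. Elovl3, which lengthens fatty acyl chains, went from 1.36 ± 0.807 to 31.2 ± 14.8 CPM (4.49 ± 0.46, adjusted p = 0.000206), and Dio2, which activates thyroid hormone, from 5.69 ± 4.6 to 15.1 ± 4.25 CPM (1.41 ± 0.45, adjusted p = 0.0365). Cox7a1 and Ppargc1a also rose, while Cidea, a lipid droplet protein, fell by 1.03 ± 0.16 on the log2 scale (adjusted p = 0.00185). The summed level of the list overlapped between the labels, at 153 to 231 CPM with the wild-type label and 135 to 276 CPM with the knockout label, and no marker was at 0 in all libraries of an adipocyte group. The part of brown or beige adipocytes in the members' rise was not tested.

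Of 14 tested subunits and isoforms that the symbol rule leaves out, 6 rose and 2 fell, against 18.0% and 17.1% of all genes. Cycs, the cytochrome c that links complexes III and IV, rose from 99.3 ± 9.53 to 180 ± 22.1 CPM (SD, n = 4), by 0.86 ± 0.11 (adjusted p = 0.000617). Cox7a1, the form of Cox7a of muscle and brown fat, rose by 1.35 ± 0.19 (adjusted p = 0.001), from 5.08 ± 1.34 to 13 ± 1.77 CPM. Ndufab1, the mitochondrial acyl carrier protein of complex I, rose by 0.61 ± 0.10 (adjusted p = 0.00225). Cox4i2 and Ndufa4l2, isoforms known from low oxygen, fell from 0.845 ± 0.344 to 0.387 ± 0.08 CPM and from 2.59 ± 1.47 to 1.04 ± 0.431 CPM (adjusted p = 0.037 and 0.043). In the same libraries 7 of 7 mural markers fell, and which cells these low levels came from was not tested. Of 14 regulators of mitochondrial genes, 3 rose, 1 fell and 10 were not called, a share of calls near or below that of all genes (18.0% higher, 35.2% in either direction). Tfb2m, a factor of mitochondrial transcription, rose by 0.43 ± 0.10 (adjusted p = 0.00877) and Esrra, an estrogen-related receptor, by 0.56 ± 0.15 (adjusted p = 0.0174). Ppargc1a, a coactivator of that receptor, rose by 0.80 ± 0.26 (adjusted p = 0.0386). Gabpb1, a partner of GABPA, fell by 0.47 ± 0.12 (adjusted p = 0.0174). In liver no gene of these lists was called.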

How the data were processed

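Poly-A RNA was sequenced from adipocytes and liver of 8 mice in 16 libraries. The deposited files hold whole-number counts per gene symbol, not normalized, 1 library per file. The submitters' processing notes name the tools bcl2fastq 2.17, STAR 2.5.2b and featureCounts 1.5.0, and the build mm10. Strand setting, annotation and the handling of multimapping reads were not given in the sources used here, so the counts of members with pseudogenes or near-identical copies, and of the 25 members that overlap another gene, are uncertain to that degree. Of the deposited count values from 1 to 20, 77.9% were even.

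Groups came from the sample titles, 4 libraries each. The main test was edgeR 4.0.16 (quasi-likelihood, TMM scaling, filterByExpr, two-sided, Benjamini-Hochberg adjustment over all genes tested, threshold 0.05) in R 4.3.3, fitted on whole tables. Each tissue was fitted alone for the label, the wild-type libraries for the tissues, and all 16 libraries for the difference of effects. In adipocytes, TMM factors ranged over 1.02 to 1.16 (wild-type) and 0.898 to 0.984 (knockout-labelled). CPM values carry the SD over 4 libraries, and log2 differences their SE. The 95% intervals use edgeR's total degrees of freedom, residual plus prior. The chi-square per degree of freedom between libraries of a group was 30.4 or more, so the spread between mice, not depth, set the precision. In simulated data for the adipocyte comparison, 100 genes were changed at each size, and 13658 genes passed the filter and were tested. Of the changed genes that were tested, 22.4% of 1.5-fold and 64.6% of 2-fold changes were called. Of the unchanged genes tested, 0.0446% were called. In the data themselves 35.2% of genes were called, so the adjustment was less strict there. The simulated shares therefore do not give the sensitivity of that comparison.

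By the labels, a mouse number joins 1 adipocyte and 1 liver library; across genes, the correlation of their deviations from the group means was -0.0592 to 0.0916. Alternatives were DESeq2 1.42.0, limma 3.58.1 (voom), other scalings, no filter, halved counts, each mouse left out, age, all libraries in 1 fit, the marker mean and the replicate block. The sums at day 70 alone were added after the data were seen. The members, gene lists and markers were chosen with earlier results of these data known. Named members were, per complex and label comparison, the 3 with the smallest p, any called against its complex, those not called in adipocytes, the extremes between tissues, the 5 smallest p for the difference of effects and the c subunit genes; of other lists, up to 3 genes with the smallest p. Others were named after their values were seen. Transcript length is the median of GENCODE M21 protein-coding transcripts.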

Additional observations from a re-analysis of the deposited data

Results flagged for a closer look

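Of 76 groups of member values and 20 of complex sums tested for a library far from the others, 3 had one, where chance gives about 1 in 20. Atp5g2 was at 33.6 CPM in wild-type liver of mouse wt_1136 and at 30 to 30.3 CPM in the other 3. Sdhc was at 167 CPM in knockout-labelled liver of mouse ko_1139 and at 147 to 150 CPM in the others. Ndufs7 was at 99.2 CPM in knockout-labelled adipocytes of mouse ko_1139 and at 83.4 to 85.3 CPM in the others.

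The effect of the label differed between adipocytes and liver for 47 members by the test of the difference itself. The 5 smallest p-values belonged to Atp5o (log2 difference of the effects 0.75), Uqcrfs1 (0.78), Cyc1 (0.74), Sdhc (0.59) and Uqcrc1 (0.67). All were higher in adipocytes.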

How the results depend on the processing

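The count of members called in adipocytes was 70 of 73 and became 45 with library totals, 14 in mice taken at day 76 alone, where fewer libraries entered the fit, and 0 with the marker mean as a covariate, where the cause was not tested. It was 55 to 70 with each mouse left out. In liver it was 0 under every alternative run. The count for the difference of effects was 47 and became 16 with library totals and 36 with the replicate block, and was 26 to 59 with a mouse left out. Between the wild-type tissues 64 members were called, 62 with the replicate block and 56 to 63 with a mouse left out. With library totals 32 were called. Of the 64 members, 40 then kept their sign and 23 were called in either direction, and 9 other members were called. With library totals the median turned to 0.0011 in complex II and 0.0265 in complex III, Atp5g2 to 0.4854 and Uqcrc2 to 0.2566. Between the knockout-labelled tissues, 48 of the 64 members kept their sign and 36 were called in either direction, and 8 other members were called. The median of complex II was then 0.0407 and Uqcrc2 stood at 0.1415. The shares of all genes under the replicate block, with a mouse left out and in the knockout-labelled libraries are not given here. The lowest count of a tested member was 671. With counts halved and rounded up, 69 of the 70 adipocyte calls stayed and that of Ndufb11 was lost. Between the wild-type tissues all 64 calls stayed, and Sdha and Ndufv3 were called as well. Ndufs5, at 0 or 1 count, could not be tested.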
